A study of Mus musculus with 64 samples.

Results

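Megakaryocyte-erythroid progenitors (MEP) sorted from the spleen were compared with MEP sorted from the bone marrow of the same young wild-type mice, across all genes. The 6 libraries were chosen by their labels alone (MEP, no disease, 23 to 28 days of age), out of 64 libraries in the study. They are a spleen and a marrow library from each of 3 mice, named 2658 (28 days old), 2685 (23 days) and m25dwt (25 days). Values of single libraries are given below in that order of mice. The mice are labelled CbyJ.Cby-Rasa3(scat)/Llp +/+, genotype wt, and are the littermate controls of scat mice, which are homozygous for a mutant allele of Rasa3. Groups set beside them are spleen and marrow MEP of 3 scat mice in anemic crisis (23 to 28 days), spleen and marrow SMP of young wild-type mice (3 libraries each), and spleen and marrow MEP of 2 older wild-type mice, 2761 (32 days) and 27265 (58 days). Whole spleen and whole marrow of young wild-type mice (23 to 28 days) give levels in the tissue. MEP of scat mice labelled as in partial remission, 2976 (33 days) and 32dscat (32 days), appear in a closing observation. SMP, short for stem and myeloid progenitors, were sorted as Lin-Sca-Kit+ cells that carry CD34 and little CD16/32. The labels name a published protocol for the MEP sort and do not spell out its markers. Sex is not given in the labels used here.

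MEP are the bone marrow cells from which the red cell and platelet lineages descend. Commitment to the red cell line runs through the transcription factors GATA2, GATA1, TAL1 and KLF1, and ends in cells that build the spectrin skeleton, the anion exchanger and hemoglobin. In mice, unlike in adult humans, the spleen makes red cells in normal life, and it takes over much of the output in anemia. RASA3 switches off the small GTPases Ras and Rap1, which act downstream of growth factor and integrin receptors.

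The libraries hold 34.74 to 51.23 M normalised counts, with 17264 to 18359 genes above 0 and an estimated 29.9 to 43.5 M reads. Between 3.23 and 4.2% of these counts were mitochondrial. The erythroid genes Gata1, Klf1, Epor, Gfi1b and Kit, which mark MEP, were high in every library (Gata1 13646, 13426 and 12611 rescaled normalised counts in spleen MEP, against 12738, 13090 and 9987 in marrow MEP; none of the 5 passed the test). CD34 and FLT3, which a MEP sort should leave low, were not absent: Cd34 stood at 32.2, 28.4 and 265.7 rescaled counts in spleen MEP, against 587.9, 79.9 and 756.1 in marrow MEP, and Flt3 at 275.5, 257 and 1728, against 2313, 1016 and 3774. The marrow library of mouse m25dwt lay farthest down the first principal component, which held 62.2% of the variance (scores of 80.9, 50.2 and -28 in spleen MEP, and -26.6, -2.39 and -74.1 in marrow MEP). Within each mouse the spleen library scored above the marrow library, while the spleen score of m25dwt fell below the marrow scores of both other mice. Spleen and marrow libraries were paired by mouse, as their titles name the animal.

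Of 14027 genes tested, 494 passed (3.52%) at an adjusted p under 0.05 in limma with the mouse as a block. Of these, 141 were higher in spleen MEP (1.01% of genes tested) and 353 were lower (2.52%). Each of the 494 moved the same way in all 3 mice, as 20.9% of all genes tested did upward and 23.7% downward. At an unadjusted p under 0.05, 1175 genes were higher (8.38%) and 1903 lower (13.6%). The genes that rose did so by little, with a median log2 fold change of 0.36 and only 3 of 141 by 2-fold or more, and they are abundant (median 3980 rescaled counts in spleen MEP and 2951 in marrow MEP). The genes that fell did so by a median of 1.35 on the log2 scale, 228 of 353 by 2-fold or more, and they are less abundant (medians of 202.3 and 468). The spleen and marrow libraries did not overlap for 118 of the 141 higher genes (83.7%) and for 76 of the 353 lower genes (21.5%), against 8.88% and 6.26% of all genes tested. For many of the lower genes named below, mouse m25dwt was high in both tissues.

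**Figure D1:**
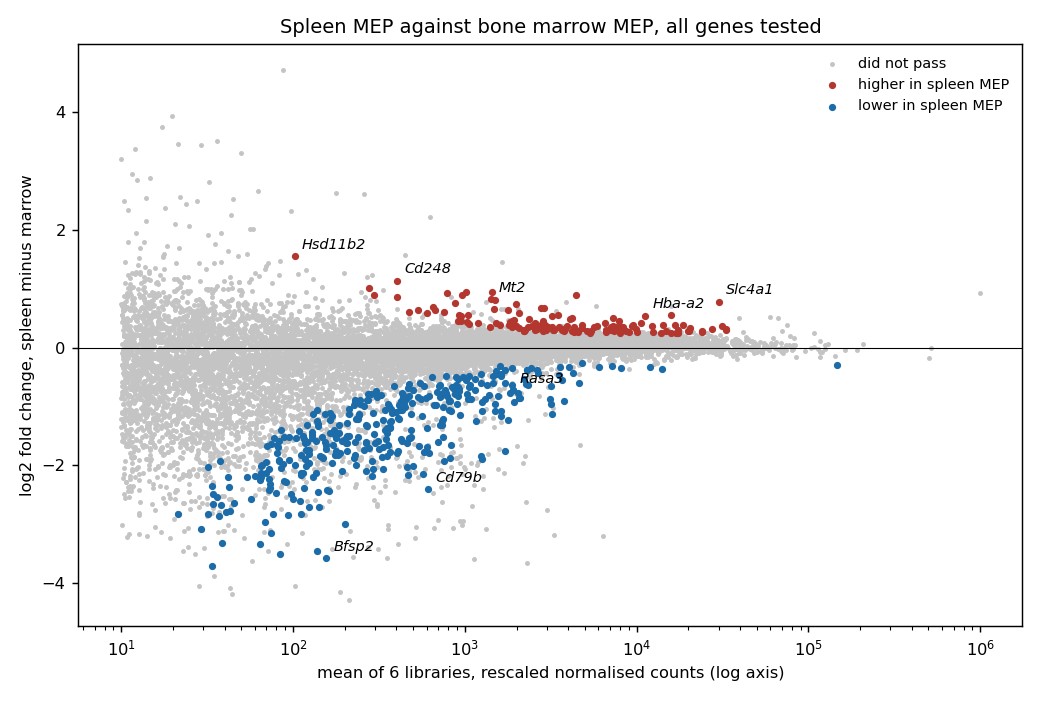
Log2 fold change (spleen minus marrow) against the mean of the 6 libraries (rescaled normalised counts, log axis) for the 14027 genes tested. The 141 genes that were higher in spleen MEP lie close to 0 and mostly to the right, and the 353 that were lower reach down to -3.71 at lower levels.

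These counts depend on the model. With no block for the mouse 0 genes passed (1332 at an unadjusted p under 0.05), with the mouse as a random block 1 passed, without the trend and robust steps of limma 0 passed (2351 unadjusted), and in a fit of all MEP libraries 3 passed. The split between higher and lower was 141 and 353 under median ratio scaling, 66 and 429 when columns were divided by their totals, 49 and 307 under upper quartile scaling, and 23 and 1001 for the deposited values as they stand, where the median of all genes lies at -0.24 on the log2 scale. Leaving out mouse 2658, 2685 or m25dwt gave 60, 68 and 372 higher genes, and 418, 431 and 357 lower genes; 307, 281 and 317 of the 494 passed in these fits too.

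Several genes of the red cell membrane and of late erythroid cells were higher in spleen MEP. The list holds membrane and skeleton proteins together with other late erythroid genes, and of its 31 genes, all of them tested, 12 rose and none fell (median log2 0.26, which is also its distance from the median of all genes), and 24 were above 0 in every mouse. Without rescaling the list's median was 0.02, with the median of all genes at -0.24, and none of its genes passed as higher. Slc4a1, which encodes band 3, the anion exchanger that anchors the skeleton, led them. It reached 38060, 37211 and 39349 rescaled counts in spleen MEP, against 24663, 21584 and 20563 in marrow MEP. The 3 spleen libraries lie within a narrow range and all above the marrow libraries (1.72-fold, log2 0.78, SE 0.0672, adjusted p = 0.0094 by limma). The gene (ENSMUSG00000006574) lies on chromosome 11 from 102348824 to 102366203 in GRCm38. Epb42, which encodes protein 4.2, a partner of band 3, held 4255, 4224 and 3910 in spleen MEP, against 2789, 3050 and 2610 in marrow MEP (log2 0.55, SE 0.0574, adjusted p = 0.013), again with no overlap.

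Others that rose include Tmod1, a cap of short actin filaments (log2 0.68), Slc25a37, the mitochondrial iron importer mitoferrin (0.55), the spectrin Sptb (0.36), the glycophorin Gypc (0.26), Kel (0.32), Xk (0.31), the ankyrin Ank1 (0.31) and Epb41, protein 4.1 (0.25). Sptb, for example, was at 38111, 34278 and 33014 in spleen MEP, against 28554, 29563 and 24087 in marrow MEP. Its groups do not overlap, and mouse m25dwt was the lowest in both tissues (SE 0.0624, adjusted p = 0.0333 in limma). Slc2a1, a glucose transporter, was the lowest member (log2 -1.11, adjusted p = 0.128) and did not pass.

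Promoters of the red cell genes that rose are shown because these genes moved together and the GATA and KLF factors of the lineage recognise short motifs. Of the 12, 6 matched a RefSeq promoter (GRCm38.p6, 250 bases before to 50 after the gene's start), and the 3 of these with the smallest p are printed 5′ to 3′ along the gene's strand. Slc4a1 is not among them. Capitals mark GATAA and CACCC on either strand (TTATC and GGGTG on the other strand), which do not overlap here.
Epb42, chr2:121036828-121037127, minus strand: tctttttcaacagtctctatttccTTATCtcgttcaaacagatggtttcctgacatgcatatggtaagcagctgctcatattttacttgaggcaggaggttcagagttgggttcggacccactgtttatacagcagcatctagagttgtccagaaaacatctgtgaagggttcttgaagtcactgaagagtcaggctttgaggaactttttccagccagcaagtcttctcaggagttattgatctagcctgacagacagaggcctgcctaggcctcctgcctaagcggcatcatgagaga
Sptb, chr12:76710498-76710797, minus strand: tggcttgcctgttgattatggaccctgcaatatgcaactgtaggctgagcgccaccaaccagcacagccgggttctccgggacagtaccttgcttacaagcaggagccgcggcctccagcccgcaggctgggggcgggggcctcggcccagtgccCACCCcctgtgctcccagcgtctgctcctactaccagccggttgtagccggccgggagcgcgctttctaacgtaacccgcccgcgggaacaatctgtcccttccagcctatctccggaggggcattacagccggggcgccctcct
Tmod1, chr4:46038972-46039271, plus strand: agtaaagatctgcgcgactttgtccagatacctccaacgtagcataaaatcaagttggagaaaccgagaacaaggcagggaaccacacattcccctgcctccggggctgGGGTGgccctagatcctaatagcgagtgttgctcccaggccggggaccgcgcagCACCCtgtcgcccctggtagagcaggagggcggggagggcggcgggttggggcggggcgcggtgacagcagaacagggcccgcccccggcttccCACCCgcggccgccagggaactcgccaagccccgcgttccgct

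The Epb42 promoter holds 1 GATAA and no CACCC, that of Sptb 1 CACCC and that of Tmod1 3. GATAA was found in 2 of the 6 promoters (33.3%), against 25.4% of all 32851 promoters in the table, and CACCC in 4 of 6 (66.7%), against 57.5%. Over all genes that passed, 12% of the matched promoters of higher genes and 12.3% of those of lower genes held GATAA, and 71.3% and 71.9% held CACCC.

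Heme synthesis genes were higher as well. Of 15 tested, 3 rose (Abcb10, Abcg2 and Fech), none fell, and 14 were above 0 in every mouse (median log2 0.24). Without rescaling the median was 0.001 and none of them passed as higher. Abcb10, a mitochondrial transporter that stabilises mitoferrin, was at 12537, 12423 and 11565 rescaled counts in spleen MEP, against 9301, 9647 and 8372 in marrow MEP, with no overlap (log2 0.42, SE 0.0511, adjusted p = 0.016 in limma). Fech, ferrochelatase, which inserts the iron, rose by 0.30 (adjusted p = 0.0377), and Abcg2, which exports porphyrins, by 0.37 (adjusted p = 0.0315). Alas2, the rate-limiting enzyme in erythroid cells, had a larger difference that did not pass (log2 0.62, SE 0.137, adjusted p = 0.08). It was at 3390, 3826 and 5233 in spleen MEP, against 2639, 2764 and 2568 in marrow MEP, so the libraries did not overlap.

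Of 5 globin genes tested 1 rose, Hba-a2, an adult alpha globin gene, with 10194, 13859 and 16074 rescaled counts in spleen MEP, against 8082, 9918 and 9155 in marrow MEP (log2 0.54, SE 0.0913, adjusted p = 0.0375 in limma). All spleen values were above all marrow values. Alpha globin genes are near-identical copies, so the share of reads each received is uncertain. The beta globin Hbb-bs was at 68028, 67927 and 99228 in spleen MEP, against 58534, 53935 and 50623 in marrow MEP (log2 0.51, adjusted p = 0.175). It did not overlap either, and the gap was widest in mouse m25dwt. The median of the globin list, 0.51, became 0.27 without rescaling. No globin gene passed as higher without rescaling, with columns divided by totals or under upper quartile scaling.

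Fewer genes of the early erythroid and transcription factor lists passed. Of 20 early erythroid genes 3 rose (Mt1, Slc39a8 and Atp1b2; median log2 0.18, or -0.06 without rescaling). Of 20 erythroid transcription factors (median 0.08, or -0.16 without rescaling) Sox6 (log2 0.46, adjusted p = 0.0333 in limma) and Tal1 (0.29, adjusted p = 0.0487) rose. Neither passed as higher without rescaling or under upper quartile scaling. Gata2, the factor of earlier progenitors that GATA1 replaces, fell. It was at 372.4, 463.8 and 885.8 rescaled counts in spleen MEP, against 1005, 743.1 and 1366 in marrow MEP (log2 -0.91, SE 0.168, adjusted p = 0.0437). Each mouse was lower in the spleen, while the spleen value of m25dwt exceeded the marrow value of 2685. Gata1 (log2 0.16, adjusted p = 0.226), Klf1 (0.19, adjusted p = 0.204) and Epor, the erythropoietin receptor (0.25, adjusted p = 0.0829), did not pass.

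Metallothioneins are small proteins that bind zinc and copper, and 1 of their genes, Mt2, was among the clearest changes. Of 8 metallothionein and zinc transport genes 3 rose (median log2 0.28, or 0.04 without rescaling) and none fell. Without rescaling none of them passed as higher. Mt2 was at 2015, 2093 and 1365 rescaled counts in spleen MEP, against 1172, 1192 and 735 in marrow MEP, with no overlap (1.78-fold, log2 0.83, SE 0.0713, adjusted p = 0.0094 in limma). Mt1 rose by 0.35 (adjusted p = 0.0363) with groups that overlap, and Slc39a8, a zinc and manganese importer, by 0.39 (adjusted p = 0.0231). Slc39a14, another importer of the same family, was at log2 -0.45 and did not pass.

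**Figure D2:**
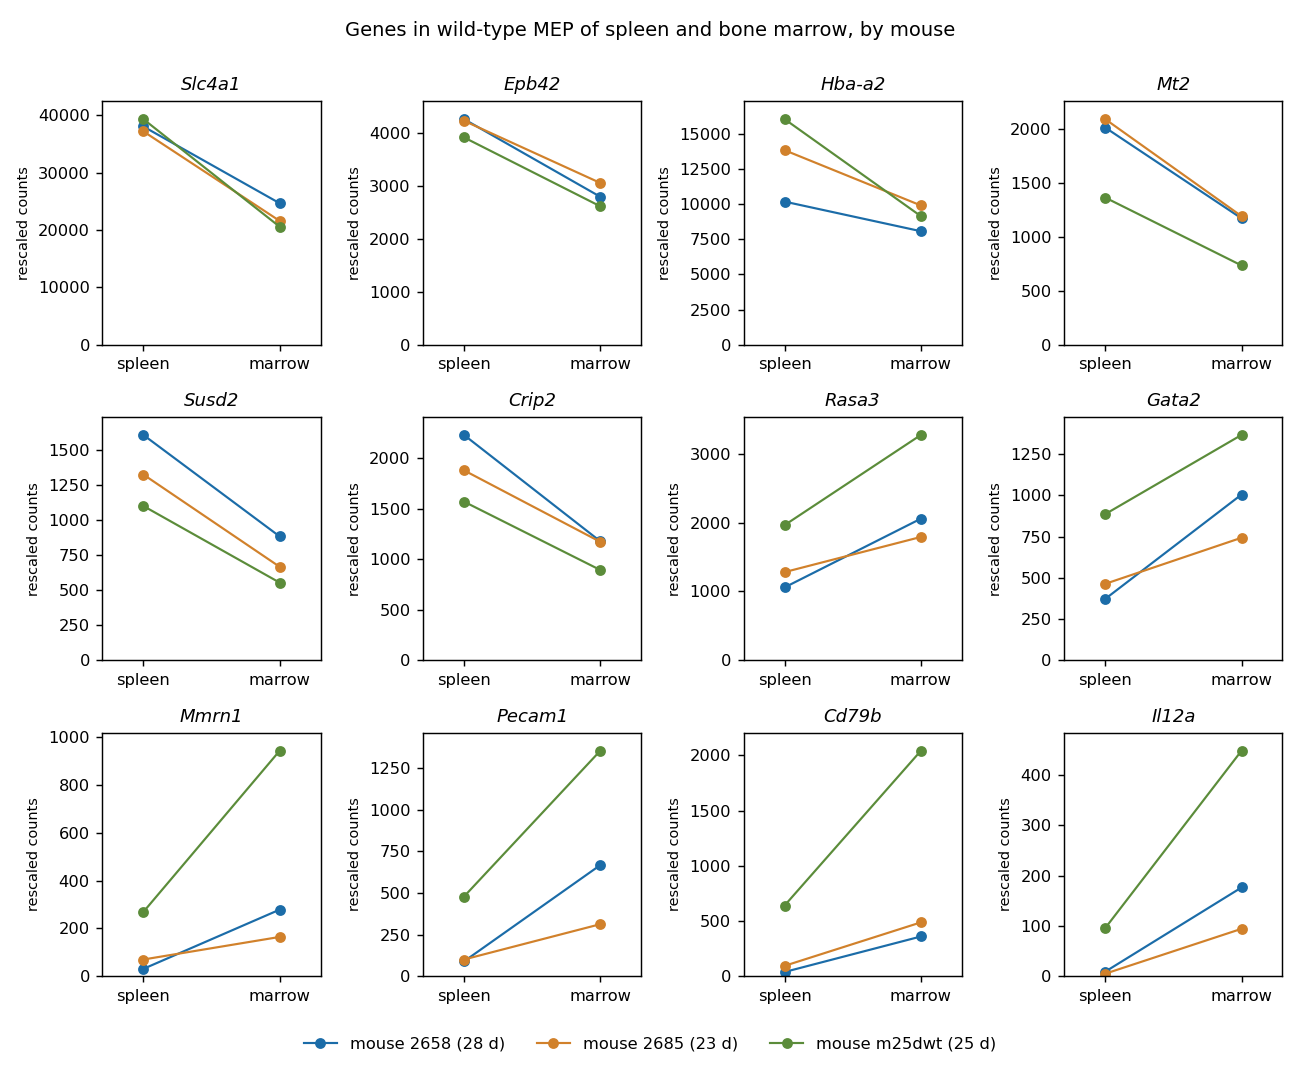
Rescaled normalised counts (linear axes from 0) of 12 genes in spleen MEP (left) and bone marrow MEP (right), with a line for each of 3 mice. The lines of Slc4a1, Epb42, Hba-a2, Mt2, Susd2 and Crip2 start higher in the spleen, and those of Rasa3, Gata2, Mmrn1, Pecam1, Cd79b and Il12a start lower, with mouse m25dwt above the other mice in both tissues for those 6 genes.

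The naming rule gave 15 genes with the highest fold changes, from log2 0.74 to 1.56, of which 13 had no overlap between tissues. Hsd11b2, which inactivates glucocorticoids, had the largest change. It was at 133.9, 203 and 122.2 rescaled counts in spleen MEP, against 63.5, 37.5 and 52 in marrow MEP (2.95-fold, log2 1.56, SE 0.331, adjusted p = 0.0488 in limma). Cd248, the surface protein endosialin, was at 606.7, 820 and 274.7, against 228.9, 304.9 and 182.6 (log2 1.14, adjusted p = 0.0331). Tinagl1, a secreted matrix protein, reached 352.9, 414.1 and 344.7, against 183.4, 180.3 and 182.7, which is an almost constant marrow level (log2 1.02, adjusted p = 0.0289). Susd2, a membrane protein, and Crip2, a LIM domain protein, changed evenly: Susd2 by 0.86, 0.99 and 0.99 on the log2 scale in the 3 mice, and Crip2 by a mean of 0.80.

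The others were the exchange factor genes Arhgef40 (log2 0.94) and Dock5 (0.93), Clca3a1 (0.89), the netrin Ntn4 (0.89), the carboxypeptidase Cpd (0.89), the antiviral enzyme Rsad2 (0.87), Irs2, an adaptor of insulin receptor signalling (0.75), and Apol8 (0.74), with Mt2 and Slc4a1. Rsad2 is a target of interferon, yet the 22 interferon genes did not move together, with 2 that rose (Rsad2 and Ly6e), none that fell and a median of 0.01 (-0.23 without rescaling, -0.04 with columns divided by totals and -0.05 with upper quartile scaling). Isg15, another of them, was at log2 0.62 without passing.

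Rasa3, the gene mutated in scat mice, was lower in spleen MEP of wild-type mice. It was at 1059, 1281 and 1962 rescaled counts in spleen MEP, against 2056, 1791 and 3271 in marrow MEP (0.60-fold, log2 -0.73, SE 0.0942, adjusted p = 0.021 in limma). Each mouse was lower in the spleen, and the groups overlap, with m25dwt high in both. Rasa3 lies on chromosome 8 from 13566948 to 13677603 in GRCm38. Of 26 Ras and Rap regulators 2 fell, Rasa3 and its relative Rasal3, another GTPase-activating protein of Ras (log2 -0.80, adjusted p = 0.0243), and none rose (median -0.02). Several GTPase genes themselves were close to 0, with Nras at log2 0.06, Rap1a at 0.10 and Rap1b at 0.01, and none of these passed. Of 11 feedback genes of the ERK pathway, which Ras drives, the phosphatase genes Dusp5 (log2 -1.96, adjusted p = 0.0243) and Dusp6 (-1.10, adjusted p = 0.0315) fell and none rose (median -0.09).

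Some genes of other progenitors were lower in spleen MEP. The platelet lineage is one of the outcomes of a MEP. Of 18 megakaryocyte and platelet genes tested (25 listed), 4 fell and none rose (median log2 -1.10). Mmrn1, which encodes a platelet granule protein, was at 30.9, 70 and 268.8 rescaled counts in spleen MEP, against 278.7, 164.5 and 943 in marrow MEP (log2 -2.05, SE 0.365, adjusted p = 0.0412 in limma). The log2 difference was -3.13, -1.22 and -1.81 in the 3 mice, and the groups overlap, with m25dwt high in both. Fli1, a transcription factor of megakaryocytes, fell as well (-1.55). Itga2b, the platelet integrin CD41, was at 91.5, 84.2 and 230.6, against 382.4, 129.4 and 385.3, and did not pass (log2 -1.13, adjusted p = 0.0872).

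Of 22 stem and early progenitor genes 2 fell, Meis1 (log2 -1.35, adjusted p = 0.0412) and Prkcd (-0.48, adjusted p = 0.0363), and none rose (median -1.11, with 12 below 0 in every mouse). Of 10 homeobox genes tested 2 fell, Meis1 among them (median -1.06). Among 28 adhesion and homing genes the integrin subunits Itgal (-1.06, adjusted p = 0.0465) and Itgb2 (-0.87, adjusted p = 0.0333), which pair as LFA-1, and S1pr1, the receptor for sphingosine-1-phosphate in blood (-1.59, adjusted p = 0.0323), fell. Itgb1, the beta chain of the fibronectin receptors, rose by 0.25 (adjusted p = 0.0464). It was at 17961, 18090 and 15409 in spleen MEP, against 14542, 15436 and 13330 in marrow MEP. Itgb1 did not pass as higher without rescaling, with columns divided by totals or under upper quartile scaling. Cxcr4, which holds progenitors in the marrow, was at log2 -0.15 and did not pass.

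The pro-B and pre-B cell list had the lowest median of the 45 lists. All 14 of its genes were below 0 in each of the 3 mice (median log2 -3.01), though only Vpreb2, Lef1 and Myl4 passed. Of 19 mature B cell genes 4 fell (Cd79b, Spib, Cd72 and Cd37; median -1.58). Cd79b, part of the B cell receptor, was at 38.6, 94.4 and 639.9 rescaled counts in spleen MEP, against 360.1, 487.9 and 2041 in marrow MEP (log2 -2.41, SE 0.282, adjusted p = 0.0231 in limma). The spleen value of m25dwt lies above the marrow values of the other mice. Cd79a, its partner, was at 20.6, 175.6 and 1641, against 805.5, 1113 and 4266, and did not pass (adjusted p = 0.262). Rag1, which recombines antigen receptor genes, was at 65.7, 364.3 and 3964, against 2640, 2757 and 10043 (log2 -3.19, adjusted p = 0.285). Summed over the pro-B and pre-B list, the level (CPM, computed from the normalised counts of each library) was 16.2, 52.4 and 576 in spleen MEP, against 399, 314 and 1500 in marrow MEP. In whole tissue of young wild-type mice the same sum was 350 to 456 in spleen and 1580 to 1750 in marrow.

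The 15 genes with the lowest fold changes, from log2 -2.45 to -3.58, include further genes known from B cells and their precursors. Tnfrsf13c, the BAFF receptor, was at 9.06, 19.3 and 79.2 rescaled counts in spleen MEP, against 122.9, 88.3 and 261.5 in marrow MEP (log2 -2.49, adjusted p = 0.0323 in limma). Cd180, a Toll-like receptor relative (-2.70), and Bst1, an enzyme of NAD turnover (-2.60), fell too. Il12a, a subunit of interleukin-12, was at 9.06, 5.07 and 95.7, against 176.6, 94.4 and 448.7 (log2 -3.44, SE 0.43, adjusted p = 0.0194). Bfsp2 (-3.58), Gpat3 (-3.50), Shisa8 (-3.34), Cyp2j6 (-3.14), Uaca (-3.002), Tmem108 (-2.85), Thrb, a thyroid hormone receptor (-2.83), Gpr25 (-2.83), Mmp11 (-2.71), Fam167a (-2.47) and Sgsm1 (-2.45) complete them. For 4 of the 15 the tissues did not overlap.

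No gene of the granule lists passed. None of 16 primary granule genes passed (10 lower at an unadjusted p under 0.05; median log2 -1.97). Mpo, the neutrophil peroxidase, was at 78.6, 118.8 and 2300 rescaled counts in spleen MEP, against 4224, 2054 and 5009 in marrow MEP (log2 -3.65, SE 1.24, adjusted p = 0.293 in limma). None of 13 late neutrophil genes passed (2 lower unadjusted), and their median was -2.08, -2.50 and 0.67 in the 3 mice, so m25dwt went the other way. None of 19 T cell genes (5 lower unadjusted; median -0.56) and none of 17 NK genes (1 higher and 7 lower unadjusted; median -0.67) passed. Markers of other cells were uneven. Of the T cell markers, Trac was near 0 (0, 0 and 1.32 in spleen MEP, against 3.90, 1.22 and 5.84 in marrow MEP), while Cd3g was at 21.9, 47.7 and 13.2, against 19.6, 27.9 and 39.7, and Trbc1 at 43, 85.6 and 59.1, against 94.5, 70.6 and 105.9. Of the endothelial genes, Cdh5 was near 0 (0, 0 and 1.28, against 7.94, 3.62 and 10.1), while Pecam1, which blood progenitors also carry, was at 89.1, 100.7 and 478.4, against 668.1, 313 and 1355. In single lists of monocyte, dendritic, mast cell and stromal genes 1, 1, 1 and 2 genes fell (Ccr2, Runx2, Gata2, and Pecam1 with Stab2) and none rose.

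Over the 3 mice together these marker lists had medians below 0, where the red cell membrane list lay above it. The sizes did not run together by mouse. The red cell membrane median was 0.25, 0.15 and 0.38 in the 3 mice, and the pro-B and pre-B median -4.75, -2.36 and -1.38. The part of the marker lists in the erythroid result was not tested. In RNA from sorted populations fewer cells of a type and less RNA per cell cannot be told apart. The summed level of the 19 mature B genes was 256, 601 and 975 on the same scale in spleen MEP, against 410, 527 and 1290 in marrow MEP, so mouse 2685 did not follow the list's median. The primary granule sum was 690, 584 and 810, against 901, 714 and 880. The stem and early progenitor sum was 464, 540 and 593, against 730, 574 and 927. The red cell membrane sum was 15800, 15300 and 16000, against 14100, 14200 and 12400.

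**Figure D3:**
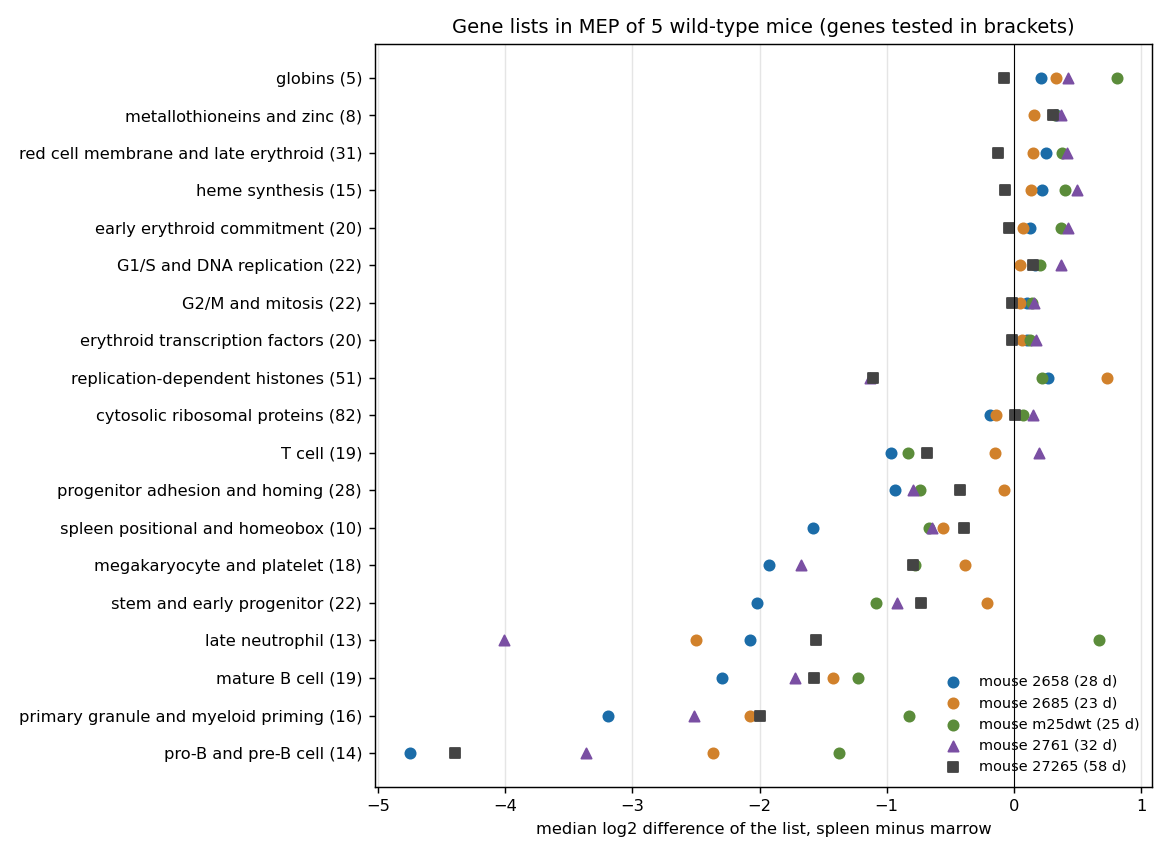
Median log2 difference (spleen minus marrow) of 19 gene lists in MEP of each of 5 wild-type mice, with the number of genes tested in brackets. Circles are the 3 young mice, and the triangle and square are mice 2761 and 27265. Erythroid lists lie right of 0 in the young mice and in 2761, B-lineage, megakaryocyte and stem lists lie left of 0 in all 5, the T cell list lies on both sides, and the histone list changes sides between young and older mice.

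Few cell cycle genes passed. Of 22 G1/S and DNA replication genes 2 rose, Ccne2, a cyclin of S phase entry (log2 0.36, adjusted p = 0.0312 in limma), and Cdc6, a licensing factor (0.26, adjusted p = 0.0445); the list's median of 0.13 becomes -0.11 without rescaling. None of 22 G2/M genes passed (4 higher at an unadjusted p under 0.05; median 0.09, or -0.15 without rescaling). Among 16 cell cycle inhibitors Rb1 rose (0.35, adjusted p = 0.0315), and Foxo1 (-0.95, adjusted p = 0.0138) and Ccng2 (-1.06, adjusted p = 0.0249) fell. Rb1 did not pass as higher without rescaling or under upper quartile scaling. None of 82 ribosomal protein genes passed (10 lower unadjusted; median -0.09), nor did any of 89 nuclear genes of oxidative phosphorylation (1 higher and 2 lower unadjusted; -0.03). The mitochondrial gene mt-Cytb fell by 0.30 (adjusted p = 0.0333), with 120620, 147260 and 129270 in spleen MEP, against 151130, 174740 and 161130 in marrow MEP. None of 15 erythropoietin and STAT5 response genes passed (2 higher and 3 lower unadjusted; median 0.01, or -0.23 without rescaling), and of 13 stress erythropoiesis genes Id3 (-1.79, adjusted p = 0.0404), a target of BMP signalling, and Tnfaip3 (-0.79, adjusted p = 0.0451) fell.

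Among the remaining lists single genes passed. Of 17 iron genes Slc25a37 rose (median 0.12, or -0.12 without rescaling), and of 18 oxidative stress genes Nqo1, a quinone reductase, rose. Of 15 p53 target genes Trp53inp1 fell, of 24 glycolysis and hypoxia genes Pgam1, of 18 genes of the unfolded protein response Phgdh, a serine synthesis enzyme, of 13 MHC class II genes the protease gene Ctss, of 18 collagen genes Col4a2, and of 94 immunoglobulin segments Ighv11-2. None of 16 MHC class I genes (8 lower unadjusted; median -0.30), 13 chaperone genes (3 higher unadjusted; 0.08, or -0.16 without rescaling), 22 lipid synthesis genes (1 higher and 2 lower unadjusted; 0.03, or -0.21 without rescaling) or 3 T cell receptor segments (0 unadjusted; -0.56) passed in limma.

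The same differences were then read in 2 older wild-type mice, which took no part in the test. Of the 141 genes higher in spleen MEP of the young mice, 139 were above 0 in mouse 2761 (98.6%), 102 in mouse 27265 (72.3%) and 101 in both (71.6%), against 37.6% of all genes tested. Of the 353 lower genes, 349 were below 0 in 2761 (98.9%), 334 in 27265 (94.6%) and 331 in both (93.8%), against 31% of all genes. The mice part over the red cell genes. All 12 red cell membrane genes that rose in young mice were above 0 in 2761, and 4 of 12 were in 27265. Slc4a1 was at 13635 in spleen MEP against 6457 in marrow MEP of 2761, and at 4896 against 7376 in 27265. Mt2 was higher in the spleen of both, with 2893 against 999 in 2761 and 8432 against 4876 in 27265. The B-lineage and progenitor lists were below 0 in both mice, with pro-B and pre-B medians of -3.37 in 2761 and -4.40 in 27265. Rasa3 was lower in the spleen of both (log2 -1.22 and -0.37). These mice differ from the young mice and from each other in age, and mice and ages cannot be told apart.

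**Figure D4:**
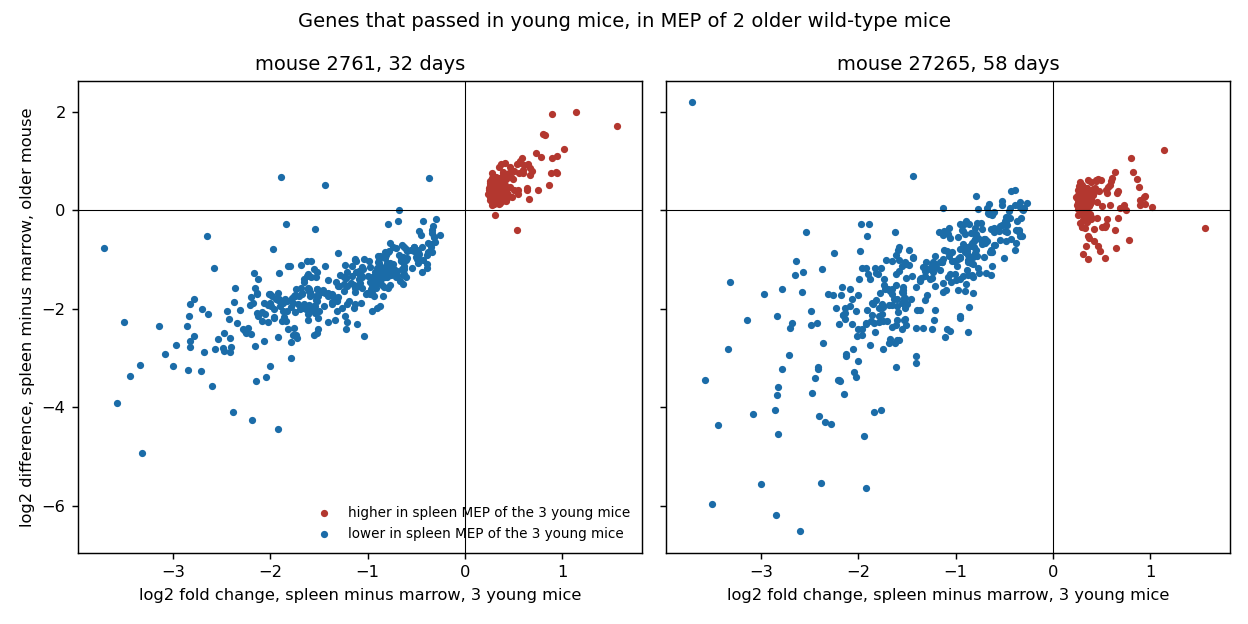
Log2 difference (spleen minus marrow) in MEP of 1 older mouse per panel against the log2 fold change in the 3 young mice, for the 494 genes that passed. In mouse 2761 nearly all points keep their side of 0, and in mouse 27265 the lower genes do (334 of 353) while fewer of the higher genes do (102 of 141).

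Whether the difference departs from that of scat mice in crisis was tested over 13974 genes, in 12 MEP libraries with the mouse as a block. None passed in limma (0%), and 807 did at an unadjusted p under 0.05 (5.78%). This does not show that the states act alike, since the crisis libraries vary widely. Slc4a1 was at 19970, 47910 and 26660 rescaled counts in crisis spleen MEP and 31450, 28200 and 15620 in crisis marrow MEP, which overlap, against 39440, 38480 and 40620 in wild-type spleen MEP and 25390, 22130 and 21290 in wild-type marrow MEP on the same scale. Its difference of log2 effects was -0.50 (SE 0.421, adjusted p = 0.865). The red cell membrane list had a median of 0.07 in crisis and 0.26 in wild type, heme synthesis 0.12 and 0.25, and globins 0.44 and 0.51. The pro-B and pre-B list had -3.04 in crisis and -3.01 in wild type, and the megakaryocyte list -1.43 and -1.10. Lists further apart were MHC class II, with -2.41 in crisis and -0.47 in wild type, T cell with -1.63 and -0.55, NK with -1.59 and -0.66, and dendritic cell with -1.38 and -0.53, and no gene of these lists passed the test of the difference. Rasa3 was at 1362, 1622 and 1429 in crisis spleen MEP and 1936, 1655 and 1484 in crisis marrow MEP, a log2 difference of -0.20, against -0.72 in wild type (difference 0.52, SE 0.162, adjusted p = 0.832). Without crisis replicate 1, 5 genes passed, and without rescaling 36 did.

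The difference was also set against that of SMP from young wild-type mice, whose spleen libraries come from other mice. Of 15092 genes 228 passed in limma with the mouse as a random block (1.51%), of which 129 had a higher spleen-minus-marrow difference in MEP (0.855%) and 99 a lower one (0.656%). Both differences of effects use the same 6 wild-type MEP libraries. No test of spleen against marrow was run within SMP, so list medians are given as values. The median of the red cell membrane list was 0.26 in MEP and 1.43 in SMP, and that of the early erythroid list 0.19 and 1.51. Rasa3 was at 9946, 10280 and 8694 rescaled counts in spleen SMP and 10090, 9367 and 9676 in marrow SMP. Its log2 difference was -0.01 in SMP, against -0.72 in MEP (MEP minus SMP -0.71, SE 0.301, adjusted p = 0.242 in limma). Of 31 red cell membrane genes 4 passed as lower in MEP (Add2, Dmtn, Kel and Xk) and none as higher, while Slc4a1 (adjusted p = 0.23) and Epb42 (adjusted p = 0.15) did not pass. Klf1, a master regulator of red cell genes, was at 20520, 20080 and 22050 rescaled counts in spleen MEP and 19330, 18870 and 16540 in marrow MEP, against 2885, 4172 and 4446 in spleen SMP and 992, 1599 and 903 in marrow SMP. Its spleen-minus-marrow log2 difference was 0.20 in MEP and 1.74 in SMP (MEP minus SMP -1.54, SE 0.293, adjusted p = 0.0369).

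Mitotic genes went the other way. Of 22 G2/M genes 8 passed as higher in MEP and none as lower (Bub1, Bub1b, Top2a, Kif11, Kif23, Cenpf, Tpx2 and Nusap1), with a list median of 0.10 in MEP and -0.42 in SMP. Bub1, a checkpoint kinase, was at 6520, 6092 and 5608 in spleen MEP and 5298, 5332 and 5260 in marrow MEP, against 2412, 1774 and 2532 in spleen SMP and 3474, 3310 and 3597 in marrow SMP (difference 0.84, SE 0.153, adjusted p = 0.03 in limma). It was thus lower in spleen SMP than in each marrow SMP library, with no such fall in MEP. Of 23 T cell genes 4 passed as lower in MEP (among them Trbc1, Tcf7 and Bcl11b). Trbc1, a constant segment of the T cell receptor, was at 44.6, 88.5 and 61 in spleen MEP and 97.3, 72.4 and 109.6 in marrow MEP, against 287.6, 388.5 and 396.4 in spleen SMP and 16.4, 95 and 13.6 in marrow SMP (difference -4.17, SE 0.803, adjusted p = 0.0356). The count rests on single libraries: it was 4, 94 and 778 without MEP mouse 2658, 2685 or m25dwt, 601 and 52 without spleen SMP replicate 1 or 2, and 19 and 67 without marrow SMP replicate 1 or 3. It was 76 without a block and 37 without rescaling.

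**Figure D5:**
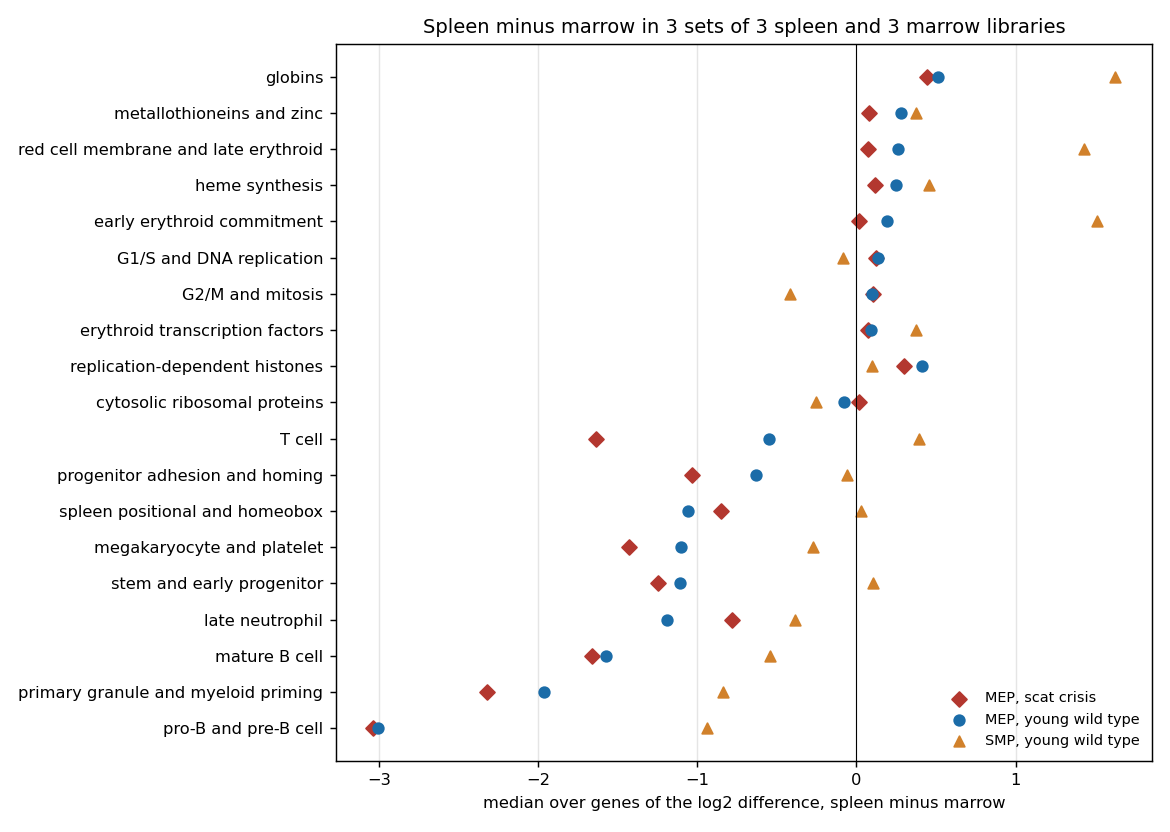
Median over genes of the log2 difference (spleen minus marrow) for 19 lists in crisis MEP, young wild-type MEP and young wild-type SMP (3 spleen and 3 marrow libraries each). Crisis and wild-type MEP lie near each other for the B-lineage and G2/M lists and further apart for the T cell list, and SMP lie further right for the red cell, early erythroid and globin lists and left of 0 for G2/M genes.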

How the data were processed

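RNA-seq libraries (KAPA mRNA HyperPrep, per the labels' protocols) were processed by the authors; the submitters' processing notes name RSEM, Bowtie2 2.2.0, DESeq2 and GRCm38, with no order or role. The authors deposited normalised counts, a signal per gene and library for 26286 genes that is not whole reads, and regularised log2 values. Of the identifiers 25607 matched GENCODE M21. The steps between low values are unequal in some columns, as sums of separately scaled runs would give, so the depth is an estimate. Strand use in the authors' counting is not given in the sources used here, so reads of overlapping antisense genes cannot be told apart.

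The 6 columns were rescaled by median ratio (log2 factors from -0.337 to 0.329). Those whose mean reached 10 were tested on log2(rescaled count + 1) in limma 3.58.1 (R 4.3.3) with the mouse as a fixed block, a trend and robust empirical Bayes, two-sided, with p adjusted by Benjamini-Hochberg across every gene and a threshold of 0.05 (2 residual and a median of 5.73 prior degrees of freedom). Fold changes on this scale understate low genes. Spleen and marrow libraries were paired because their titles name the same animal. Deviations of same-mouse libraries from their group means correlated at 0.215, 0.233 and 0.496. Between different mice these correlations ran from -0.513 to 0.384. The spleen library of 2658 correlated more with the marrow library of 2685 (0.384) than with its own marrow library (0.215). Crisis and SMP were compared through interaction terms. An exact test of 3 pairs cannot reach 0.05, so none was used for single genes. The script was tested on simulated data. Promoter motifs were counted with Python 3.11.15.

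The comparison and the 45 gene lists (38 from textbook knowledge, 7 from symbol patterns) were chosen with earlier results of these data known. Genes are named by a rule: the 15 highest and 15 lowest fold changes among genes that passed, with every mouse moving the same way and a mean of at least 100 in the higher tissue, leaving out unnamed clones, pseudogenes and receptor segments; up to 4 genes a list that passed, or else the one with the smallest p; the 5 highest and 5 lowest of each difference of effects; Rasa3; and fixed cell markers. Other list members were named after their values were seen.

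Alternatives were scaling, pseudocount (0.5 and 8), filter (none and a mean of at least 50), block, regularised log2 values, other libraries in the fit, plain empirical Bayes and leaving out each replicate. Some genes that the rule names are not reported here.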

Additional observations from a re-analysis of the deposited data

Results flagged for a closer look

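The count of 228 genes whose spleen-minus-marrow difference was not the same in MEP and SMP came from the test of that difference (limma), as did 10 genes named by rule. The 5 with the highest value of MEP minus SMP were Col1a1 (log2 4.48, adjusted p = 0.0381), the predicted gene Gm13502 (2.94), the pseudogene Znf41-ps (1.77), Gm3604 (1.59) and Zfp934 (1.58). Col1a1, a collagen of stroma and bone, was at 16.9, 18.2 and 94.1 rescaled counts in spleen MEP and 19.2, 20.6 and 32.7 in marrow MEP, against 8.28, 11.4 and 21.9 in spleen SMP and 301.2, 86.1 and 491.9 in marrow SMP. Its spleen-minus-marrow log2 difference was 0.39 in MEP and -4.09 in SMP.

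The 5 with the lowest value were the pseudogene Rpl10-ps3 (log2 -8.34, adjusted p = 0.0486), Gm26551 (-6.67), Tcrg-C4, a T cell receptor gamma segment (-5.38), the noncoding RNA gene Miat (-4.59) and Bcl11b (-4.48, adjusted p = 0.0395). Bcl11b, a T cell commitment factor, was at 56.6, 87.6 and 80.8 in spleen MEP and 65.6, 64.7 and 82.5 in marrow MEP, against 167.7, 175.6 and 172 in spleen SMP and 1.197, 28.2 and 5.38 in marrow SMP. Rpl10-ps3 was at 0, 0 and 39.8 in spleen MEP and 40, 20.2 and 75 in marrow MEP, against 18.9, 6.78 and 135.1 in spleen SMP and 0 in the 3 marrow SMP libraries. As a near copy of Rpl10 its reads are uncertain. Tcrg-C4 was at 4.58, 17 and 17.5 in spleen MEP and 30.4, 13.2 and 27.7 in marrow MEP, against 78.3, 109.3 and 90.2 in spleen SMP and 4.65, 12.5 and 0 in marrow SMP.

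Young and older wild-type mice lay on opposite sides of 0 in 2 further results, and this difference was not tested. Stab2, a scavenger receptor of sinusoid endothelium, fell in young mice (37.3, 81.2 and 94.4 in spleen MEP, against 126, 252.9 and 182.3 in marrow MEP), while its log2 differences in the older mice averaged 0.61. Its levels there were low, at 72.4 in spleen MEP against 50.4 in marrow MEP of 2761. In 27265 they were 20.3 against 12.1, close to the filter's mean of 10. The 51 replication-dependent histone genes had medians of 0.27, 0.74 and 0.22 in the young mice, with 1 gene that rose (Hist1h2ao), and -1.14 and -1.10 in mice 2761 and 27265, an average of -1.12. Hist1h2ao did not pass as higher without rescaling, with columns divided by totals or under upper quartile scaling.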

How the results depend on the processing

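The count of 494 genes became 1024 without rescaling, 979 with no filter, 2680 in a fit of all 5 wild-type mice (451 of the 494 passed there too), 3 in a fit of all MEP libraries, 0 without the replicate block, 1 with the mouse as a random block and 0 with plain empirical Bayes. It stayed within 1.5 times (356 to 495) under total and upper quartile scaling, a pseudocount of 0.5, a mean of at least 50 and the regularised log2 values, with 703 at a pseudocount of 8. It ran from 478 to 729 when single mice were left out. The crisis difference, 0 genes, became 36 without rescaling and 0 to 5 with single mice left out, and stayed at 0 without the block. The SMP difference, 228 genes, became 37 without rescaling, 76 without the block and 4 to 778 with single libraries left out. The share of the 494 genes on the same side of 0 in the older mice, 87.45%, became 98.79% without mouse 27265. The cause of these changes was not tested.

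No gene that passed and is named by rule changed direction under the alternatives run; genes that did not pass were not followed. Without rescaling, which moves the median of all genes to -0.24, list medians changed side for early erythroid (-0.056), iron (-0.12), G1/S (-0.11) and immunoglobulin genes (-0.13), and for lists that lay within 0.1 of 0, among them erythroid transcription factors (-0.16), G2/M (-0.15), interferon (-0.23) and oxidative stress genes (-0.17). List medians also changed side for immunoglobulin genes with single mice left out (-0.37 to 0.87), and for histone genes in the fit of all 5 wild-type mice (-0.20); some other lists near 0 did so too under other settings. With 3 mice the fit has 2 residual degrees of freedom, and the files give depth only as an estimate, so no interval for counting error is given.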

Other observations

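In mouse m25dwt some genes that erythropoietin or iron demand is known to raise stood far higher in spleen MEP than in marrow MEP. Erfe, which encodes erythroferrone, was at 320.8, 205 and 738.2 rescaled counts in spleen MEP, against 180.3, 121 and 169.7 in marrow MEP (log2 1.23, SE 0.287, adjusted p = 0.069 in limma). Podxl, a sialomucin that erythropoietin induces on mouse erythroid progenitors, was at 410.9, 83.2 and 2911, against 194.9, 41.1 and 119.2 (log2 2.22, adjusted p = 0.336). Tfrc, the transferrin receptor, was at 62042, 48955 and 105350, against 49777, 42818 and 50012 (log2 0.53, adjusted p = 0.244). All 3 genes were higher in the spleen of each mouse, and none passed. They were picked after their values were seen. The lists of such genes moved far less. The erythropoietin and STAT5 list had medians of -0.21, 0.04 and 0.25 in the 3 mice. Of its 15 genes tested, 4 were above 0 and 3 below 0 in every mouse. The iron list had medians of 0.115, 0.04 and 0.19. An erythropoietin or iron response in m25dwt was not tested.

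The Y-linked gene Eif2s3y was at 479.2, on a scale common to all MEP libraries of paired mice, in spleen MEP of mouse m25dwt, against 2842 in its marrow MEP, while Ddx3y (3418 and 3231), Kdm5d (1568 and 1793) and Uty (1406 and 1516) were near each other in the 2 libraries. The only other MEP library with such a level was the spleen MEP of remission mouse 32dscat (502.1), and the other 18 held 1898 to 5065.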
